A study of Mus musculus with 15 samples.

Results

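The genes of 9 transcription factors of the myeloid lineages were followed through RNA-seq libraries of MLL-ENL-transformed mouse cells. They are Spi1, Irf8, Irf5, Klf4, Gfi1, Id2, Runx1, Egr2 and Nr4a1, chosen by name as 9 of the 53379 genes in the deposited table of normalized reads, and all 9 passed the filter on low values. MLL-ENL is a leukaemia fusion oncogene, and fetal liver cells carrying it grow stably as myeloid progenitors in medium with 10 ng/ml of interleukin-3. The cells came from 2 mice, whose lines the table calls clones C1 and C2. WTFL cells, labelled wild-type, carry floxed Cebpa and Cebpb alleles that were not recombined, and no GFP is listed for them. The dKO cells lost Cebpa and Cebpb after treatment with TAT-Cre, a recombinase that enters cells, and express GFP from a retroviral vector. LAP* cells are dKO cells of clone C1 that express GFP together with LAP*, a long isoform of C/EBPβ, from the rat gene. Each dKO line is a rare surviving clone, and a dKO line differs from its WTFL line by the GFP vector as well as by the deletion, so these cannot be told apart. There are 5 groups of 3 libraries, whose RNA was taken from 1 line at different time points, so a p-value measures only the spread within a line. Reads on genes numbered 9212237 to 13613500 per library (median 11885279).

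The labels were checked first. Cebpa, the gene of C/EBPα, had 903 to 1437 normalized reads in WTFL libraries of clone C1 and 1653 to 2267 in those of clone C2, and Cebpb, the gene of C/EBPβ, had 1394 to 1559 and 1353 to 1634. Both genes were listed at 0 in every dKO library. LAP* libraries had 2537 to 4216 normalized reads assigned to Cebpb, and in these cells only the rat sequence is expressed. Among cell type markers, Ptprc (the leukocyte antigen CD45, 3458 to 9017 normalized reads), Fcgr3 (an Fc receptor, 1931 to 3321) and Itgam (CD11b, 676 to 1885) were present in all libraries, while 3 of 4 markers of liver parenchyma, Alb, Apoa1 and Ttr, were at 0 in all of them. The fourth, Afp (alpha-fetoprotein), had 27.1 to 36.1 normalized reads in WTFL and 7.06 to 10.5 in dKO libraries of clone C1, 4.61 to 9.14 in LAP* libraries, and 106 to 165 in WTFL and 72.9 to 83.7 in dKO libraries of clone C2. Afp was lower in dKO cells of both clones (adjusted p = 3.9e-05 and 0.042, limma) and higher in WTFL cells of clone C2 than of clone C1 (adjusted p = 1.1e-05, limma), and its part in the member results was not tested.

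Transcription factors set myeloid fate in combination. PU.1, the product of Spi1, opens the enhancers of myeloid genes and works with RUNX1 and with the C/EBP factors that the dKO cells lack. IRF8 and KLF4 drive progenitors to monocytes and IRF5 serves inflammatory macrophages, whereas GFI1 is a repressor that favours granulocytes over monocytes. ID2 binds E proteins and keeps them from DNA, and EGR2 and NR4A1 are products of immediate early genes with roles in macrophages and in patrolling monocytes.

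Sequences upstream of 4 members are shown because these genes moved most between groups or hold the letters searched for. RefSeq (GRCm38.p6) lists promoters for 8 of the 9 members, with 15 starts among 32851 in the genome, and Spi1 was not matched. The 250 bases before each start were searched on both strands. Irf8 (first listed start, chr8:120736108-120736357, plus strand) and Klf4 (chr4:55532476-55532725, minus strand) were the members with the widest range of levels. Gfi1 (first listed start, chr5:107725806-107725954, minus strand) is given over the 149 bases nearest its start that hold no Gfi1 exon. Runx1 (second listed start, chr16:92697330-92697579, minus strand) changed in clone C2. Capitals mark the C/EBP letters TTGCNNAA and the PU.1 core GAGGAA or its reverse complement.
Irf8: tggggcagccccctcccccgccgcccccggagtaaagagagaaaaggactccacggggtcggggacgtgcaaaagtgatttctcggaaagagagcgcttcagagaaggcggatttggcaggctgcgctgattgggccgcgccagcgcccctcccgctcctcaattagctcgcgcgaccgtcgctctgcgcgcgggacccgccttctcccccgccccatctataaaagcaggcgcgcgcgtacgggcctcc
Klf4: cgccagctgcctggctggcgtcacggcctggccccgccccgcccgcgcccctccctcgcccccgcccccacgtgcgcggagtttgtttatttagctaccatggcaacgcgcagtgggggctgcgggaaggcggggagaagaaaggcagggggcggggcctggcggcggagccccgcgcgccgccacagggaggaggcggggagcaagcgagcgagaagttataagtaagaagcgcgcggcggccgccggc
Gfi1: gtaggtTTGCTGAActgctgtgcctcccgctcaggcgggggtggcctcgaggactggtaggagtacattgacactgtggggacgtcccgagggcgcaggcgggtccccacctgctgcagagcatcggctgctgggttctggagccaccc
Runx1: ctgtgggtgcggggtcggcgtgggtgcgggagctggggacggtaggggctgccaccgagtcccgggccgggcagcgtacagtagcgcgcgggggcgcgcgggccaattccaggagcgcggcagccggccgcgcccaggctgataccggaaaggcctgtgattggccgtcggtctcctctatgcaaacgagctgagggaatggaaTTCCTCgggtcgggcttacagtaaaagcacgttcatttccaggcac

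The C/EBP letters stood in 1 of the 15 member starts, that of Gfi1, as TTGCTGAA on the strand of the gene from 143 to 136 bases before the start, and in 9.56% of all promoters. The GAGGAA core stood in 5 of the 15 windows and in 23.3% of all promoters, but the 5 windows hold only 3 separate sites. These are a site that the overlapping windows of 3 Egr2 starts share, another before a further Egr2 start, and the one in the Runx1 window shown. EGR letters (GTGGGCG) were found before the second Gfi1 start, the Irf5 start and the first Egr2 start, against 7.02% of all promoters. GFI1 letters (AATCNNNGC) were found before the first Irf8 start, an Egr2 start and the Nr4a1 start, against 8.87%. IRF letters (GAAANNGAA) were in 1 Egr2 window, against 7.13%. None of the 15 held the RUNX letters TGTGGT (14.0% of all promoters), the NR4A letters AAAGGTCA (1.34%) or the KLF4 letters GGGTGTG (6.93%). Such matches describe these windows only.

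**Figure D1:**
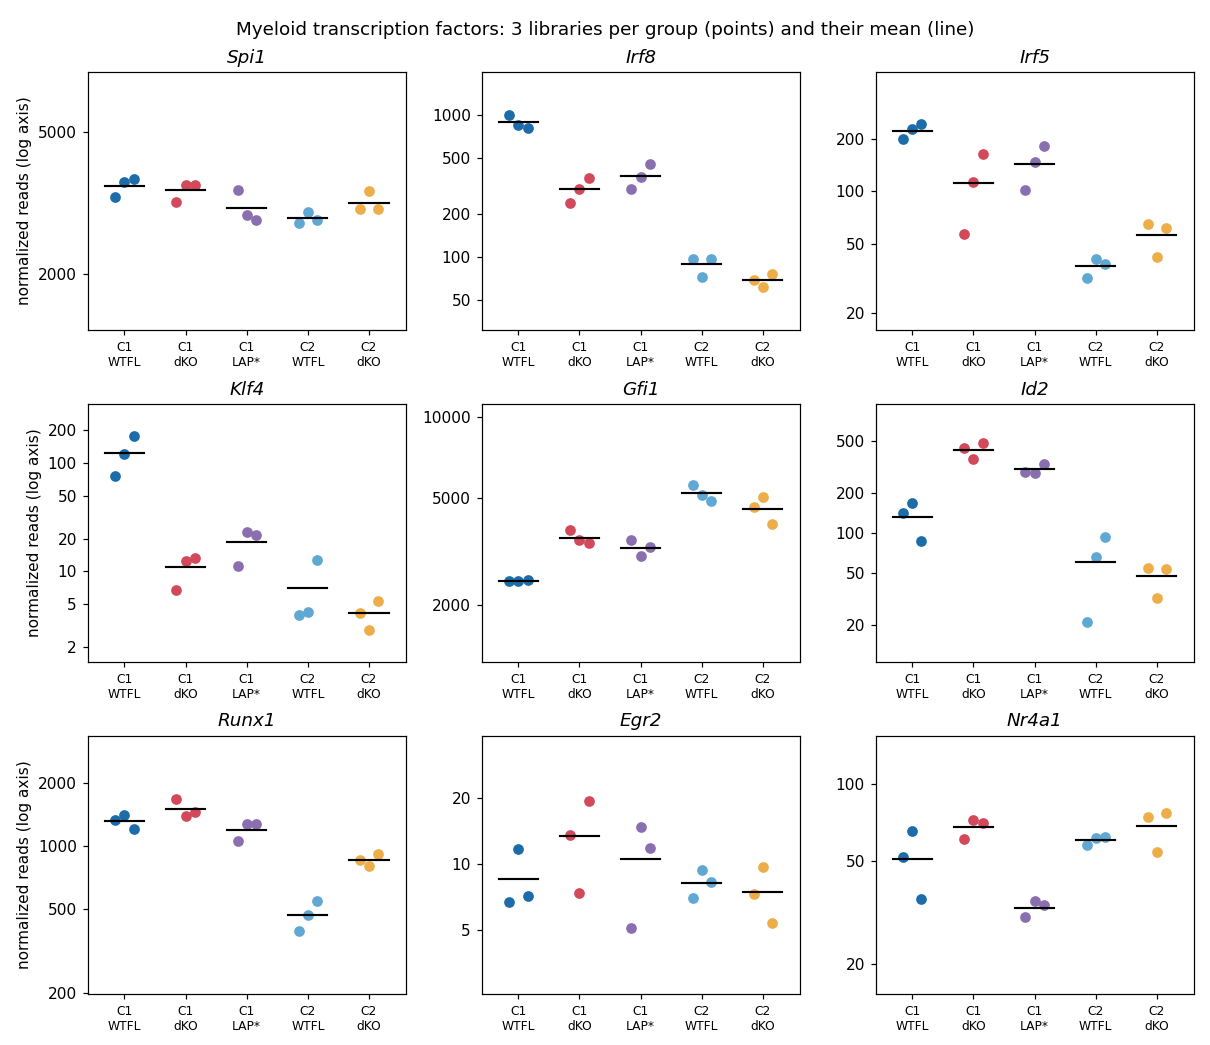
Normalized reads of each of the 9 genes (log axis, with its own range in each panel) in the 5 groups. Points are the 3 libraries of a group and the line is their mean; Irf8, Irf5 and Klf4 were highest in WTFL cells of clone C1, while Spi1 stayed between 2780 and 3674 in all libraries.

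Levels are given as normalized reads, which are reads divided by a size factor of each library, and genes were compared with each other only per kilobase of exon. Per kilobase, Spi1 and Gfi1 were the most abundant members, with group means of 1064 to 1308 and 773 to 1629 normalized reads. Spi1 stood at the 95.8th to the 96.8th percentile of the genes tested, and Gfi1 at the 93.7th to the 97.5th. Runx1 (39.0 to 125 per kilobase), Irf8 (9.75 to 125), Id2 (19.2 to 174) and Irf5 (12.8 to 76.6) were lower, as were Klf4 (1.36 to 40.7), Nr4a1 (9.43 to 19.6) and Egr2 (2.20 to 3.96), and the order of these 7 changed between groups. Egr2 rested on 5 to 22 reads in a library. Klf4 varied most, its highest group mean being 29.9 times its lowest, followed by Irf8 (12.9 times), Id2 (9.11), Irf5 (6.00) and Runx1 (3.21). Gfi1, Nr4a1, Egr2 and Spi1 varied 2.11, 2.08, 1.80 and 1.23 times.

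The first comparison asked how these regulators differ between cells with and without C/EBPα and C/EBPβ. In clone C1, the monocyte factors Klf4, Irf8 and Irf5 fell in dKO cells, and Id2 and the granulocyte factor Gfi1 rose. In clone C2, Runx1 rose, and no other member passed the test. Differences are those of log2(normalized reads + 1) with their standard errors, tested with limma and adjusted over the 12673 genes that reached 10 normalized reads in 3 or more libraries. A gene was called where its adjusted p was under 0.05. By this rule 2 of the 9 members were higher and 3 lower in dKO cells of clone C1, beside 17.1% and 19.9% of all genes tested. In clone C2, 1 was higher and 0 lower, beside 17.4% and 20.1% of all genes. For the 0, edgeR and DESeq2 also gave 0, and at an unadjusted p under 0.05 limma gave 1, Gfi1. The median difference of the members was 0.20 in clone C1 and -0.15 in clone C2, against -0.01 and -0.03 over all genes tested.

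**Figure D2:**
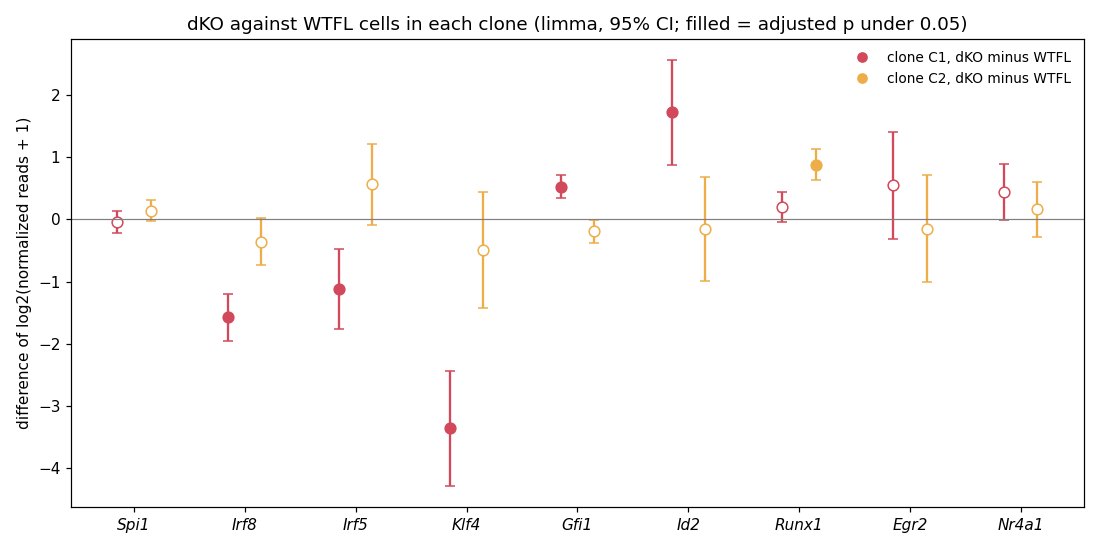
Difference of log2(normalized reads + 1) between dKO and WTFL cells for each member in clone C1 and in clone C2, with 95% confidence intervals from limma. Filled points passed an adjusted p under 0.05: Klf4, Irf8, Irf5, Gfi1 and Id2 in clone C1 and Runx1 in clone C2.

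Irf8 lies on chromosome 8 from 120736358 to 120756694 (GENCODE vM21, mm10, the source of all positions given here). WTFL libraries of clone C1 had 999, 850 and 806 normalized reads of Irf8, and dKO libraries had 239, 299 and 358. The groups did not overlap, and the log2 difference was -1.58 ± 0.18, a 2.98-fold lower level (adjusted p = 3.7e-06, limma). Clone C2 was low throughout, with 97.6, 72.4 and 97.1 normalized reads in WTFL and 69.0, 61.2 and 76.2 in dKO libraries. These groups overlapped, and the difference of -0.36 had a 95% confidence interval of -0.73 to 0.02 (adjusted p = 0.12, limma). In such bulk libraries, fewer cells that express a gene and less of its RNA per cell cannot be told apart.

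Klf4, on chromosome 4 from 55527143 to 55532466, changed most. It had 74.9, 122 and 175 normalized reads in WTFL and 6.80, 12.6 and 13.2 in dKO libraries of clone C1. Every WTFL library was far above every dKO library, and the log2 difference was -3.36 ± 0.44, a 10.3-fold lower level (adjusted p = 1.7e-05, limma). In clone C2, WTFL libraries had 3.98, 4.19 and 12.8 normalized reads and dKO libraries 4.18, 2.92 and 5.36. These values rest on 3 to 14 reads in a library, and the difference of -0.49 had an interval of -1.42 to 0.44 (adjusted p = 0.41, limma). With single libraries left out it ranged from -0.75 to -0.0083.

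Irf5, on chromosome 6 from 29526625 to 29541871, had 199, 226 and 241 normalized reads in WTFL and 56.6, 113 and 162 in dKO libraries of clone C1. The groups did not overlap, though the dKO libraries spread widely, and the log2 difference was -1.12 ± 0.31 (adjusted p = 0.0089, limma). The call was lost when only these 2 groups entered the fit (adjusted p = 0.059, limma). Leaving out the lowest dKO library, replicate 1, reduced the difference to -0.70 (adjusted p = 0.044, limma). Clone C2 had 31.9, 40.9 and 38.5 normalized reads in WTFL and 64.9, 41.8 and 61.1 in dKO libraries, all dKO values being above all WTFL values. Its difference of 0.56 did not pass the test (95% confidence interval -0.09 to 1.21, adjusted p = 0.16, limma). An exon of Irf5 overlaps one of Tnpo3 on the other strand, which had 1668 to 2129 normalized reads, and the strand setting of the counting is not given in the sources used here, so Irf5 counts are uncertain to that extent.

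Among the WTFL libraries of clone C1, replicate 3 stood apart in Irf7, an interferon-induced relative of Irf5 and Irf8, with 432 normalized reads against 3991 and 2627. Its levels of Irf8 and Irf5 were close to those of the other two. Without this library the log2 differences were -1.64 for Irf8, -1.06 for Irf5 and -3.07 for Klf4, and all 3 calls held.

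Gfi1, on chromosome 5 from 107716657 to 107726036, had 2458, 2448 and 2484 normalized reads in WTFL and 3795, 3490 and 3386 in dKO libraries of clone C1. The rise of 0.53 ± 0.09 on the log2 scale, 1.44-fold, stands against a narrow spread of the WTFL libraries (adjusted p = 0.00014, limma). In clone C2 the level was higher in both groups, with 5595, 5135 and 4847 normalized reads in WTFL and 4608, 5049 and 4012 in dKO libraries. These groups overlapped, and the difference of -0.19 (interval -0.37 to -0.01) did not pass the adjusted test (adjusted p = 0.090, limma), but it did without dKO replicate 2 (adjusted p = 0.027) and after quantile normalization (adjusted p = 0.025). A430072P03Rik, which overlaps Gfi1 on the other strand and spans the sequence shown above, had 38.8 to 148 normalized reads.

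Id2, on chromosome 12 from 25093799 to 25097140, had 140, 170 and 86.6 normalized reads in WTFL and 439, 361 and 476 in dKO libraries of clone C1. It rose by 1.72 ± 0.40 on the log2 scale, 3.30-fold, with no overlap (adjusted p = 0.0028, limma). In clone C2, WTFL libraries ranged from 20.9 to 66.1 and 92.5, around the dKO values of 54.4, 32.1 and 53.6. The difference of -0.15 there (interval -0.99 to 0.69, adjusted p = 0.80, limma) has no settled direction. It was called at -0.77 without WTFL replicate 1 (adjusted p = 0.043), and turned to 0.037 without WTFL replicate 2, to 0.28 without replicate 3, to 0.092 without dKO replicate 2 and to 0.025 after quantile normalization.

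Runx1, on chromosome 16 from 92601466 to 92826149, encodes a factor needed for the first blood stem cells and later for myeloid genes. In clone C2 it had 393, 468 and 547 normalized reads in WTFL and 856, 805 and 919 in dKO libraries. The groups were clearly apart, and the rise was 0.88 ± 0.12 on the log2 scale, 1.84-fold (adjusted p = 2.2e-05, limma). In clone C1, WTFL libraries had 1321, 1408 and 1201 and dKO libraries 1677, 1394 and 1446. These overlapped, and the difference of 0.20 (interval -0.05 to 0.45) did not pass the test (adjusted p = 0.20, limma), but was called at 0.31 after quantile normalization (adjusted p = 0.040).

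Spi1, on chromosome 2 from 91082390 to 91115756, moved least. It had 3290, 3608 and 3674 normalized reads in WTFL and 3180, 3557 and 3542 in dKO libraries of clone C1, and 2780, 2988 and 2832 in WTFL and 3046, 3410 and 3038 in dKO libraries of clone C2. The dKO values of clone C2 were all above its WTFL values, while those of clone C1 overlapped. The log2 differences were -0.04 (interval -0.21 to 0.13, adjusted p = 0.74, limma) and 0.14 (interval -0.03 to 0.31, adjusted p = 0.19, limma), and the sign in clone C1 turned after quantile normalization, to 0.095, and without dKO replicate 1, to 0.012.

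The immediate early genes also did not pass the test. Nr4a1, on chromosome 15 from 101254269 to 101274795, had 52.2, 65.8 and 35.7 normalized reads in WTFL and 61.2, 72.4 and 70.6 in dKO libraries of clone C1. These overlapped, and the difference of 0.44 (interval -0.003 to 0.89, adjusted p = 0.11, limma) was called only without WTFL replicate 2 (0.64, adjusted p = 0.029). In clone C2, WTFL libraries had 57.8, 61.9 and 62.3 and dKO libraries 74.3, 54.4 and 77.2, a difference of 0.16 (interval -0.28 to 0.61). Egr2, on chromosome 10 from 67535475 to 67542188, had 6.69, 11.7 and 7.13 normalized reads in WTFL and 13.6, 7.34 and 19.4 in dKO libraries of clone C1. In clone C2, Egr2 had 6.97, 9.44 and 8.25 in WTFL and 7.32, 9.72 and 5.36 in dKO libraries, and the intervals, -0.32 to 1.41 and -1.01 to 0.72, allow changes of over 1 log2 unit that this depth could not show.

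Other cell type markers moved with the deletion and with LAP* as well. Many of these markers passed the filter on low values only through the groups in which they are high, so their sums are given as a description without counts of calls. The 5 eosinophil markers summed to 0 to 1.34 normalized reads in WTFL and 7714 to 14682 in dKO libraries of clone C1, to 628 to 1596 in LAP* libraries, and to 2.10 to 12.8 in WTFL and 212 to 320 in dKO libraries of clone C2, with Prg2, Prg3, Epx and Il5ra at 0 in WTFL cells of clone C1. For the 7 mast cell and basophil markers the sums in the same order were 73.4 to 106, 1710 to 1984, 407 to 494, 170 to 180 and 890 to 1331, Cpa3, Fcer1a, Tpsb2 and Cma1 being at 0 in WTFL cells of clone C1. The 8 erythroid and megakaryocyte markers summed to 23.4 to 45.1, 204 to 315, 47.0 to 79.2, 17.9 to 45.1 and 124 to 202. The sums of these 3 lists were thus higher in dKO than in WTFL libraries of both clones, and lower in LAP* than in dKO libraries, without overlap, but a few abundant genes carry them and single members went the other way. Ms4a2 fell in dKO cells of clone C2, from 47.6 to 69.7 normalized reads in WTFL to 5.23 to 12.6 in dKO libraries, and Pf4 in those of clone C1, from 16.3 to 33.4 to 5.24 to 9.06, with 10.9 to 14.2 in LAP* libraries.

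The 7 lymphoid markers, again in that order, summed to 144 to 157, 2.65 to 4.20, 7.11 to 9.12, 23.1 to 33.9 and 1.94 to 5.23, with Cd3e, Pax5 and Rag1 among those at 0 in WTFL cells of both clones. The 5 dendritic cell markers summed to 1.02 to 4.02, 33.98 to 81.2, 63.0 to 108, 0.92 to 5.24 and 262 to 353, nearly all of it from the cytokine receptor gene Flt3 in dKO and LAP* cells, while Siglech was at 0 in all libraries. The 6 haematopoietic and myeloid progenitor markers, which were all tested, summed to 21388 to 25537 in WTFL and 73380 to 90892 in dKO libraries of clone C1, to 73810 to 86674 in LAP* libraries, and to 10899 to 13271 and 37936 to 46721 in clone C2. In clone C1 most of each sum was Mpo, a granule gene described further on. Cd34, a stem and progenitor cell antigen, had at most 7.22 normalized reads in WTFL and 2393 to 2745 in dKO libraries of clone C1, and at most 2.10 and 5935 to 6975 in clone C2. Kit, the stem cell factor receptor, rose 2.29-fold and 4.46-fold (limma, each adjusted p at most 8.0e-07). The leukocyte antigen Ptprc had a log2 difference of -0.31 in clone C1 (adjusted p = 0.082, limma) and rose by 0.40 in clone C2 (adjusted p = 0.028, limma). The part of these cell types in the member results was not tested.

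The next question was whether loss of both factors acted alike in the lines of the 2 mice. The dKO effect of clone C2 minus that of clone C1 was tested in the same fit, and it was higher for 4 and lower for 2 of the 9 members, beside 15.1% and 14.3% of all genes. Irf5 differed by 1.68 ± 0.43, Irf8 by 1.22 ± 0.25 and Runx1 by 0.68 ± 0.16 on the log2 scale, with adjusted p-values of 0.0079, 0.0016 and 0.0051 (limma). For Klf4 the value was 2.87 ± 0.62, but its sign was fixed by the starting levels, since even a fall to 0 from the 3.98 to 12.8 normalized reads in WTFL cells of clone C2 would have been smaller on this scale than the fall in clone C1, so it shows no difference in how the clones responded. Gfi1 differed by -0.72 ± 0.12 (adjusted p = 0.00033, limma) and Id2 by -1.87 ± 0.56 (adjusted p = 0.019, limma). The Id2 call was lost at -1.69 without WTFL replicate 2 or at -1.45 without WTFL replicate 3 of clone C2 (adjusted p = 0.052 in each case). For Spi1, Egr2 and Nr4a1 the differences of 0.18, -0.69 and -0.28 had intervals of -0.06 to 0.43, -1.92 to 0.53 and -0.91 to 0.35.

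These differences stand beside unequal starting levels. Before any deletion, WTFL cells of clone C2 were higher than those of clone C1 in 1 member and lower in 6, beside 19.7% and 21.3% of all genes. Klf4 differed by -4.06 ± 0.44 on the log2 scale, Irf8 by -3.31 ± 0.18 (9.89-fold lower) and Irf5 by -2.56 ± 0.31 (5.88-fold lower), with adjusted p-values of 1.7e-06, 6.4e-10 and 5.3e-06 (limma). Runx1 was 2.81-fold lower (-1.49 ± 0.12, adjusted p = 4.8e-08, limma) and Spi1 1.23-fold lower (-0.30 ± 0.08, adjusted p = 0.0084, limma). Gfi1 was 2.10-fold higher (1.07 ± 0.09, adjusted p = 6.0e-08, limma). Id2 was lower at -1.31 ± 0.40 (adjusted p = 0.014, limma), but the call was lost with only the 2 groups in the fit (adjusted p = 0.11), without WTFL replicate 2 of clone C1 (adjusted p = 0.059) and at -0.70 without WTFL replicate 1 of clone C2 (adjusted p = 0.061). Egr2 and Nr4a1 were not called, with intervals of -0.88 to 0.85 and -0.16 to 0.73. The clones are lines of different mice, so mouse and line cannot be told apart here.

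Across the 5 groups, Irf8, Irf5 and Klf4 stood in the order WTFL, LAP* and dKO cells of clone C1. Below these came, for Irf8, WTFL (mean 89.0) and then dKO cells (68.8) of clone C2, for Irf5 dKO (55.9) and then WTFL cells (37.1), and for Klf4 WTFL and then dKO cells. For Irf8 the neighbours LAP* and dKO of clone C1 overlapped, as did the 2 groups of clone C2, while WTFL cells of clone C1 stood above all others in all 3 genes. Neighbours further down overlapped in Klf4, and in Irf5 all but the 2 groups of clone C2. The order for Id2 was dKO, LAP* and WTFL cells of clone C1, without overlap, and then the 2 groups of clone C2, which overlapped. In Gfi1 the groups of clone C2 came first, then dKO and LAP* cells of clone C1, which overlapped, and WTFL cells of clone C1 last. Runx1 had overlapping neighbours in the 3 groups of clone C1 and was lower in dKO (860) and then WTFL cells (469) of clone C2. For Nr4a1 only LAP* cells stood apart from their neighbour, and for Spi1 and Egr2 all neighbours overlapped.

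The last comparisons asked which members LAP* moved in dKO cells, and they rest on clone C1 alone, LAP* cells of clone C2 being not analysed here. Against dKO cells, LAP* cells were higher in 0 and lower in 1 of the 9 members, beside 1.43% and 3.03% of all genes. The 0 held with edgeR, with DESeq2 and at an unadjusted p under 0.05. Nr4a1 had 30.5, 35.0 and 33.7 normalized reads in LAP* libraries, below every other library. It fell by 1.02 ± 0.21 on the log2 scale against dKO cells, to a 2.02-fold lower level (adjusted p = 0.011, limma), and the call was lost without dKO replicate 2 (adjusted p = 0.052). Some markers of other cell types also fell in this comparison, among them the eosinophil gene Prg2 with a log2 difference of -3.75, the mast cell gene Cpa3 with -3.56 and the megakaryocyte gene Itga2b with -2.62 (limma, each adjusted p at most 0.0031). The other mast cell and basophil markers tested, Gata2 (-0.41), Ms4a2 (-0.32) and Mcpt8 (-0.15), and the megakaryocyte marker Pf4 (0.61) were not called, and the part of these cell types in this result was not tested.

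The members that had fallen or risen in dKO cells of clone C1 lay nearer to dKO than to WTFL cells after LAP*. Irf8 had 299, 367 and 451 normalized reads in LAP* libraries, overlapping the dKO range, with a difference from dKO cells of 0.32 (interval -0.06 to 0.69, adjusted p = 0.37, limma). Klf4 had 11.2, 23.0 and 21.9, also overlapping, with a difference of 0.72 (interval -0.21 to 1.64, adjusted p = 0.42, limma). Irf5 had 102, 147 and 181, with a difference of 0.46 (interval -0.19 to 1.11, adjusted p = 0.47, limma). Gfi1, at 3490, 3035 and 3273, differed by -0.12 (interval -0.31 to 0.06). Id2, at 288, 286 and 334, was below every dKO library, with a difference of -0.48 (interval -1.32 to 0.36, adjusted p = 0.58, limma). Runx1, at 1050, 1270 and 1264, was likewise below every dKO library, at -0.33 (interval -0.58 to -0.09, adjusted p = 0.13, limma). Spi1 had 3428, 2926 and 2829 (-0.17, interval -0.34 to 0.01) and Egr2 5.08, 14.8 and 11.9 (-0.34, interval -1.20 to 0.53).

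Against WTFL cells of clone C1, LAP* cells were higher in 2 and lower in 3 members, beside 14.2% and 18.3% of all genes. Klf4 was 6.26-fold lower (-2.65 ± 0.44, adjusted p = 0.00019, limma) and Irf8 2.40-fold lower (-1.26 ± 0.18, adjusted p = 3.8e-05, limma), and Gfi1 was 1.32-fold higher (0.40 ± 0.09, adjusted p = 0.0016, limma). Id2 was 2.36-fold higher (1.24 ± 0.40, adjusted p = 0.025, limma), but not without WTFL replicate 3 (0.96, adjusted p = 0.094) or without LAP* replicate 1, 2 or 3 (adjusted p = 0.051, 0.050 and 0.073). Nr4a1 was lower at -0.58 ± 0.21 with an adjusted p of 0.046 (limma), a call lost under 4 of the 8 alternatives and with most single libraries left out (adjusted p up to 0.21, at -0.38 without WTFL replicate 2). Irf5 (-0.66, interval -1.31 to -0.01, adjusted p = 0.11, limma), Spi1 (-0.21, interval -0.38 to -0.03, adjusted p = 0.065, limma), Runx1 (-0.14) and Egr2 (0.21) were not called. Spi1 was called without WTFL replicate 1 (adjusted p = 0.049) or LAP* replicate 1 (-0.29, adjusted p = 0.012), and Irf5 without dKO replicate 1, which enters this comparison only through the spread (adjusted p = 0.036). These comparisons share their dKO or WTFL libraries with those above.

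**Figure D3:**
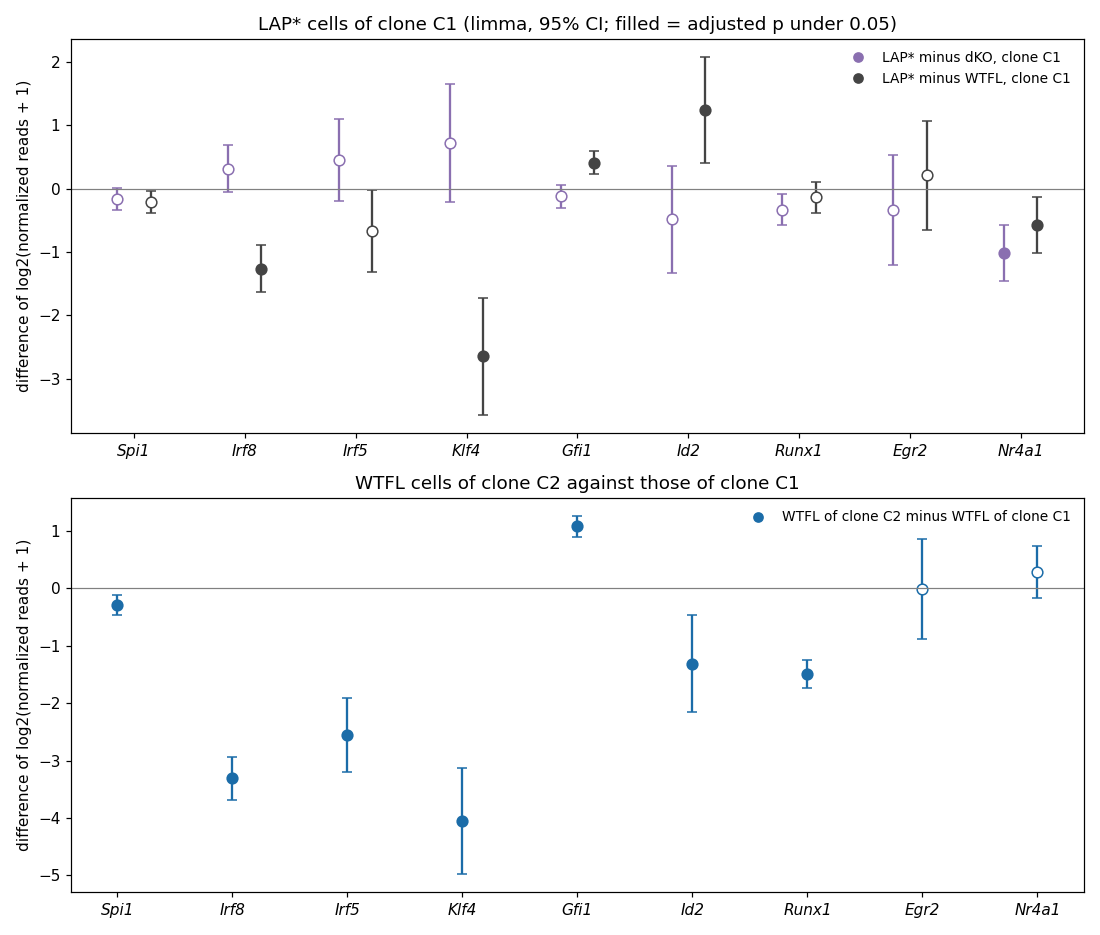
Upper panel, difference of log2(normalized reads + 1) of LAP* cells from dKO cells and from WTFL cells of clone C1; lower panel, WTFL cells of clone C2 minus those of clone C1. Bars are 95% confidence intervals from limma and filled points passed an adjusted p under 0.05; against dKO cells only Nr4a1 was called, at -1.02.

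Relatives and cofactors of the members form the first of 4 wider lists, and 28 of its 33 genes were tested. In dKO cells of clone C1, 4 rose and 11 fell, with a median of -0.19, beside 17.1% and 19.9% of all genes tested. The 11 include Maf, which passed the filter only through WTFL cells of clone C1, so its fall was fixed by the filter. In clone C2, 6 rose and 4 fell, with a median of -0.05, beside 17.4% and 20.1%. Apart from the falls in clone C1, these shares were near or below those of all genes. Cbfa2t3, a corepressor partner of RUNX1, rose from 244 ± 25.1 to 686 ± 77.9 normalized reads in clone C1 (1.49, adjusted p = 8.9e-08, limma) and from 213 ± 32.6 to 1445, 1603 and 1634 in the dKO libraries of clone C2 (2.88, adjusted p = 5.2e-11, limma). Myb, a progenitor factor, rose by 0.52 (log2) in clone C1 and 0.70 in clone C2, and Runx3, a paralogue of Runx1, by 0.80 and 0.40 (limma, each adjusted p at most 0.00099). Nab2, a corepressor of EGR factors, fell from 107 ± 31.9 to 21.7 ± 6.53 normalized reads in clone C1 and from 187 ± 62.6 to 31.2 ± 10.6 in clone C2 (-2.25 and -2.54, adjusted p = 2.7e-05 and 9.1e-06, limma).

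The relatives with the widest gap between the dKO differences of the clones were Maf, Irf7 and Gfi1b, given here as a description. For Maf and Irf7 the levels in WTFL cells of clone C2 left no room for a fall of the size seen in clone C1, and Maf passed the filter only through WTFL cells of clone C1. Irf7 fell in clone C1, from 3991, 2627 and 432 to 30.6, 42.0 and 36.2 normalized reads, while clone C2 had at most 15.6 in WTFL and 22.5 in dKO libraries. Maf, a macrophage factor, had 264, 301 and 83.5 normalized reads in WTFL libraries of clone C1 and at most 3.05 in any library of the other groups. Gfi1b, the paralogue of Gfi1, was listed at 0 in all WTFL libraries of clone C2 and at 9.65 to 23.0 in its dKO libraries, against 5.09 to 45.1 and 18.5 to 28.3 in clone C1. Against dKO cells, LAP* cells had 0 of the 28 called in either direction by limma, edgeR or DESeq2, and 2 higher and 3 lower at an unadjusted p under 0.05 (limma). Of all genes tested, limma called 1.43% higher and 3.03% lower there, so the 0 of 28 is near that share.

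Of 21 monocyte and macrophage genes that these factors are known to drive, 20 were tested. In dKO cells of clone C1, 3 rose and 12 fell (median -0.70), beside 17.1% and 19.9% of all genes tested, and in clone C2, 4 rose and 4 fell (median 0.03), beside 17.4% and 20.1%. The 3 rises include Ciita, which passed the filter only through dKO and LAP* cells of clone C1, where it is high. The counts in clone C2 and of rises in clone C1 were near the shares of all genes. Ccr2, the chemokine receptor of inflammatory monocytes, fell from 2937 ± 1117 to 1004 ± 280 normalized reads in clone C1 and from 3140 ± 680 to 397 ± 108 in clone C2 (-1.51 and -2.99, adjusted p = 0.0015 and 2.6e-06, limma). Cd14, the endotoxin coreceptor, fell by 1.56 and 2.11, and Cd68, a macrophage lysosomal protein, by 1.07 and 0.57 as log2 differences (limma, each adjusted p at most 0.0077). Cd74, the invariant chain of MHC class II, went the other way, from 61.2 ± 31.5 to 739 ± 245 normalized reads in clone C1 and from 1.31 ± 1.14 to 12.7 ± 1.96 in clone C2.

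The targets in this list with the widest gap between the clones were Fcgr1, Ciita and Il1b, also given as a description. The levels of Fcgr1 and Il1b in WTFL cells of clone C2 left no room for falls of the size seen in clone C1, and Ciita passed the filter only through dKO and LAP* cells of clone C1. Fcgr1, a high-affinity Fc receptor, fell from 905 ± 335 to 128 ± 16.3 normalized reads in clone C1 (-2.74, adjusted p = 6.7e-07, limma), whereas in clone C2 it had at most 2.10 in WTFL libraries and 48.1 to 68.7 in dKO libraries. Ciita, the regulator of MHC class II genes, was listed at 0 in WTFL libraries of clone C1 and at 22.6 to 52.1 in its dKO libraries, and at no more than 2.15 in any library of clone C2. Il1b, an inflammatory cytokine, fell from 424 ± 309 to 9.45 ± 4.13 normalized reads in clone C1 (-5.18, adjusted p = 1.3e-06, limma) and had 0.97 to 10.1 in all libraries of clone C2. In WTFL cells of clone C2 against those of clone C1, 14 of the 20 targets were lower and 1 higher (median -1.64), beside 21.3% and 19.7% of all genes, a comparison in which Irf8, Irf5 and Klf4 were lower too. Against dKO cells, LAP* cells had 0 targets higher, also at an unadjusted p under 0.05 and with edgeR and DESeq2, and 2 lower (1.43% and 3.03% of all genes).

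Genes that GFI1 is known to repress numbered 9, all tested. In dKO cells of clone C1, where Gfi1 rose, 0 were higher (also at an unadjusted p under 0.05 and with edgeR and DESeq2) and 4 lower (3 with edgeR and with DESeq2, median -0.37), beside 17.1% and 19.9% of all genes tested. In clone C2, 1 was higher and 2 were lower (median -0.39), near the 17.4% and 20.1% of all genes. In WTFL cells of clone C2 against clone C1, where Gfi1 was 2.10-fold higher, 5 were higher and 1 was lower (median 0.72), beside 19.7% and 21.3%. Ccnd2, a cyclin, fell in clone C1 from 1780 ± 179 to 1054 ± 134 normalized reads and rose in clone C2 from 1512 ± 271 to 2723 ± 249, a difference between clones of 1.62 (adjusted p = 2.3e-05, limma). Egr1, which is also a paralogue of Egr2, fell in clone C2 from 384 ± 171 to 57.7 ± 12.2 (-2.61, adjusted p = 0.00049, limma), and in clone C1 had 83.5 ± 57.2 and 44.9 ± 17.9. LAP* cells had 0 of these genes higher than dKO cells by limma, edgeR or DESeq2 (2 at an unadjusted p under 0.05 by limma), and 1 lower by limma but 0 by edgeR or DESeq2. Of all genes tested, limma called 1.43% higher and 3.03% lower there, so few calls among 9 genes say little about them.

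Neutrophil granule and maturation genes numbered 12, and in dKO cells of clone C1 9 rose and 0 fell (0 also at an unadjusted p under 0.05 and with edgeR and DESeq2; median 1.68), beside 17.1% and 19.9% of all genes tested, against 4 and 2 in clone C2 (median 0.27), beside 17.4% and 20.1%. Mpo, the myeloperoxidase of primary granules, rose from 14175 ± 1488 to 69702 ± 9398 normalized reads in clone C1 and from 2798 ± 1099 to 22686 ± 5837 in clone C2. Elane, neutrophil elastase, had log2 rises of 0.77 and 0.80 (limma, adjusted p = 5.5e-05 and 4.0e-05). Ltf, lactoferrin of secondary granules, rose from 38.0 ± 7.73 to 3629 ± 325 in clone C1 (6.56, adjusted p = 3.3e-10, limma) and less in clone C2, from 551 ± 283 to 929 ± 89.1 (0.93, adjusted p = 0.029, limma), a tested difference of -5.63. The secondary granule genes Camp and Ngp rose by 3.62 and 3.46 in clone C1, with 0.18 and 0.07 in clone C2 (differences -3.44 and -3.40, adjusted p at most 3.5e-06, limma). In LAP* cells 8 of the 12 were lower than in dKO cells and 0 higher (median -1.50), beside 3.03% and 1.43% of all genes. Both counts were the same by edgeR, by DESeq2 and at an unadjusted p under 0.05 (limma). Ltf differed by -3.30, Ngp by -2.05 and Camp by -1.81 (adjusted p at most 0.00031, limma), while Gfi1 differed there by -0.12 with no call. The sums of the eosinophil, mast cell and megakaryocyte markers were lower in the same libraries, as given above, and their part in these falls was not tested.

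**Figure D4:**
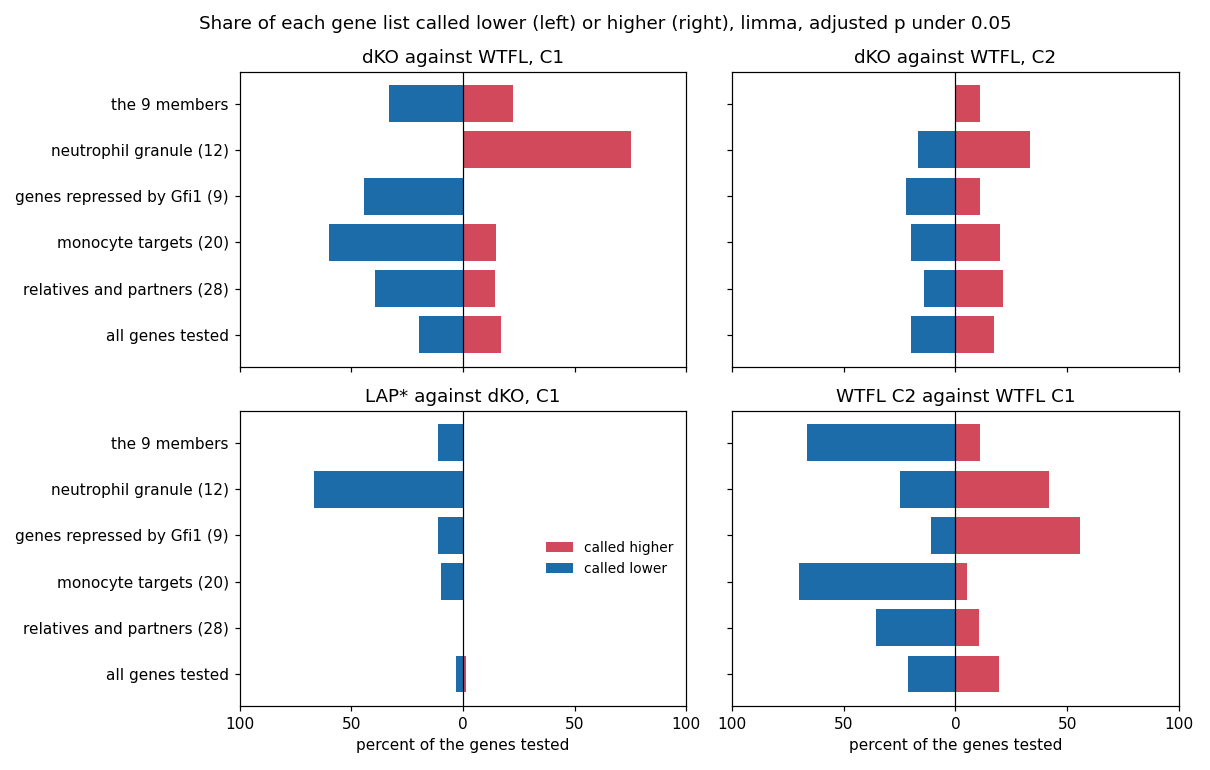
Percent of the tested genes of each list, of the 9 members and of all genes tested that were called lower (left) or higher (right) in 4 comparisons by limma. Of the neutrophil granule genes, 9 of 12 were higher in dKO cells of clone C1 and 8 of 12 lower in LAP* than in dKO cells, and of the monocyte targets 12 of 20 were lower in dKO cells of clone C1.

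Across the 15 libraries, Irf8, Irf5 and Klf4 varied together, with Pearson's r of 0.918 for Irf8 with Irf5, 0.899 for Irf8 with Klf4 and 0.855 for Irf5 with Klf4 on the log2 scale. Gfi1 ran the other way, with r of -0.947 with Irf8, -0.954 with Irf5 and -0.907 with Klf4. The libraries form 5 groups from 2 mice, so these values mostly describe group levels, and they share the size factor of each library. Among tested genes outside the 9, the closest to Irf8 were Ifi207 (0.994) and Trim30c (0.986), both of interferon-induced families, and to Klf4 A530076I17Rik (0.968) and Tmcc3 (0.949). Irf5 was closest to Slc43a2 (0.944) and Tmem268 (0.943), and Gfi1 to Ssx2ip (0.958) and Nipsnap1 (0.954). Id2 ran with Phactr2 (0.970) and the receptor gene Notch1 (0.958), and Runx1 with Clec4a2 (0.979), a lectin receptor gene, and Sh2d3c (0.973). For Spi1, Nr4a1 and Egr2 the closest were Gps2 (0.874) and Gga3 (0.855), Phf1 (0.886) and Wipi1 (0.871), and E230016M11Rik (0.813) and Taf4 (0.719).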

How the data were processed

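Normalized reads per gene were measured in 15 RNA-seq libraries of 5 groups. The authors prepared stranded mRNA libraries, mapped read pairs on the mm10 genome by STAR (2.5.3a), counted them per gene with HTSeq (0.10.0) and normalized them with DESeq2 (1.26.0), and the annotation and the strand setting are not given in the sources used here. The deposited signal is therefore a read count divided by a size factor per library (0.747 to 1.13). At least 99.988% of the values of a library lay within 0.1 of a whole read, so reads were recovered for count tests. HTSeq's 5 rows of other reads (22.4% to 26.2% of reads) and 3 columns named for LAP* of clone C2, which match no sample here, were left out. Genes without a symbol (26111) were named from GENCODE vM21 where possible (26006).

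limma 3.58.1 (R 4.3.3, trended prior) was run on log2(normalized reads + 1), all libraries together, with a mean for each group and Benjamini-Hochberg adjustment over 12673 of the 24520 genes with any read. edgeR 4.0.16 (quasi-likelihood) and DESeq2 1.42.0 on recovered reads, pseudocounts of 0.1 and 5, no filter, quantile normalization, a replicate block, leaving out each library, and fits restricted to the libraries of a comparison were the alternatives. Scripts were tested on simulated data. The text names the 9 members, and from each wider list up to 3 genes with the largest mean rise and fall called alike in both clones and up to 3 that differed most between them. A gene that this rule names and a marker are not reported here. Members and lists were chosen with earlier results of these data known. Intervals cover 95% and, like counts of few reads, rest on reads without molecular identifiers. Python 3.11.15, pandas 2.3.3, numpy 2.4.6 and matplotlib 3.10.9 made tables and plots. Promoters are those of RefSeq, build GRCm38.p6.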

Additional observations from a re-analysis of the deposited data

Results flagged for a closer look

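For 6 members, of which Klf4 is set apart below, a test of the difference itself called the effect of losing Cebpa and Cebpb unequal in the lines of the 2 mice (limma, dKO minus WTFL in clone C2 minus the same in clone C1). The same test called 15.1% of all genes tested higher and 14.3% lower. Irf8 differed by 1.22 on the log2 scale, having fallen in clone C1 from levels that clone C2 did not reach in any library. For Klf4 the value of 2.87 had to be positive, since its level in WTFL cells of clone C2 left no room for a fall of the size seen in clone C1. For the other 5 the test covers only the spread within 1 line per group. Irf5 differed by 1.68, with lower dKO values in clone C1 and higher, uncalled ones in clone C2. Runx1 differed by 0.68, with effects of 0.88 in clone C2 and 0.20 in clone C1. Gfi1 differed by -0.72 and Id2 by -1.87, both having risen in clone C1. The Id2 call was lost without WTFL replicate 2 or 3 of clone C2 (adjusted p = 0.052 in each case, limma).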

How the results depend on the processing

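Of the member differences, 421 of 432 kept their direction and their side of the threshold over the 8 alternatives, and 773 of 810 with each library left out. Quantile normalization turned the dKO effect to 0.095 for Spi1 in clone C1 and to 0.025 for Id2 and 0.15 for Egr2 in clone C2, and called 1 member lower in clone C2. With only the groups compared, 86 genes were higher in LAP* than in dKO cells, against 181. Leaving out 1 library gave 75 to 259 genes higher and 196 to 469 lower in that comparison (384 in the full fit) and 0 or 1 member lower, 1 or 2 members higher in LAP* than WTFL cells, 0 or 1 member lower in dKO cells of clone C2, and 1 or 2 members lower for the difference between clones.

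Ranges with 1 library left out crossed 0 for Spi1 in clone C1 (-0.090 to 0.012), Id2 (-0.77 to 0.28) and Egr2 (-0.33 to 0.043) in clone C2, and Egr2 in LAP* against dKO (-0.69 to 0.071) and WTFL cells (-0.068 to 0.62) and between the WTFL lines (-0.15 to 0.21). The cause was not tested. Correlations of the deviations from group means were -0.17 to 0.30 between same-numbered libraries and -0.25 to 0.21 between differently numbered ones. They do not settle whether the replicate numbers pair the samples. With a replicate block the Nr4a1 call in LAP* against WTFL cells was lost (-0.58, adjusted p = 0.064, limma) and no other member call changed. Depth limits Egr2 and, in clone C2, Klf4 (at most 22 and 14 reads).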
